A study of Mus musculus with 24 samples.

Results

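Mouse mitochondrial DNA (mtDNA) carries 37 annotated genes, of which 13 encode proteins, 2 encode ribosomal RNAs and 22 encode transfer RNAs. They were taken as all genes whose mm10 symbol starts with mt-, out of 54532 gene identifiers in the count tables. Their RNA was measured in 24 bulk RNA sequencing libraries of mouse kidney. In 6 KO libraries per duration, Lrp2 had been deleted from proximal tubule cells, and 6 WT libraries per duration came from wild-type littermates. All mice ate a Western diet, for 2 or 12 weeks, so every group shares the diet and no library comes from another feed. Lrp2 encodes megalin, the receptor with which proximal tubule cells take filtered proteins out of the tubular fluid. Tubulointerstitial nephritis is in the series title, and the comparison asks how mitochondrial RNA of the KO kidney differed from WT at each duration. The name LRP2-SM22 that the labels give the mice is left unexplained there, and the sources used here give neither the driver of the deletion nor the age of the mice. The labels do not say that each library came from its own mouse, so p-values measure the spread between these samples.

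The proteins made from mtDNA are core subunits of the respiratory chain and of ATP synthase. Complex I takes 7 of them (mt-Nd1 to mt-Nd6 and mt-Nd4l), complex III takes 1 (mt-Cytb), complex IV takes 3 (mt-Co1 to mt-Co3) and ATP synthase, also called complex V, takes 2 (mt-Atp6 and mt-Atp8). All other subunits of these complexes are encoded in the nucleus. Both strands of mtDNA are transcribed into long precursor RNAs, and the tRNAs that lie between the other genes are cut out, which frees the mRNAs and rRNAs. The proximal tubule is dense in mitochondria, whose ATP drives its reabsorption of salt, glucose and filtered proteins.

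A few stretches of mtDNA sequence bear on how these counts can be read, and they are given here 5′ to 3′ from the GENCODE M21 transcripts of mm10. The first shows that mt-Atp8 and mt-Atp6 overlap by 43 bases at chrM:7927-7969. The capitals mark the start codon of mt-Atp6 and, at the other end, the stop codon of mt-Atp8. A read within this stretch belongs to both genes.
mt-Atp8 and mt-Atp6 overlap: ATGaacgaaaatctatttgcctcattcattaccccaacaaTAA

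The next pair shows that a read may also have an identical home in the nucleus. The first 60 bases of mt-Co2 (chrM:7013-7072, plus strand) are followed by those of the pseudogene Gm28661 (chr1:24615506-24615565, minus strand), with the start codon in capitals.
mt-Co2: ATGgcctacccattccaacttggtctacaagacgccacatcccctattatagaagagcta
Gm28661: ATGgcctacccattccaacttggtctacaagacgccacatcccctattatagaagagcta

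Gm28661 matched mt-Co2 without a substitution over 681 aligned bases. In the same block of chromosome 1, Gm28437 matched mt-Co3 over 783 bases, Gm10925 matched mt-Atp6 over 678, Gm10222 matched mt-Nd4l over 294, Gm28438 matched mt-Nd3 over 342 and Gm28439 matched the first 876 of 1378 bases of mt-Nd4, all at 100% identity. The last 483 bases of mt-Co1 differed from Gm29216 by the single substitution A1066T, counted from the first base of mt-Co1. It stands in capitals below, in the mt-Co1 window chrM:6390-6413 and the Gm29216 window chr1:24616165-24616188 on the minus strand.
mt-Co1: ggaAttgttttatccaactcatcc
Gm29216: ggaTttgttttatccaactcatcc

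The third set gives some of the tRNAs that were lower in KO at 2 weeks, as described below, with the anticodon in capitals. They are mt-Tl1 (chrM:2676-2750, plus strand, leucine), mt-Tm (chrM:3845-3913, plus strand, methionine), mt-Te (chrM:14071-14139, minus strand, glutamate) and mt-Tq (chrM:3772-3842, minus strand, glutamine). No stretch of 50 bases of any of the 22 tRNA genes was found in an annotated nuclear transcript. Nuclear sequence outside annotated transcripts, such as that between the pseudogenes on chromosome 1, was not searched, so copies of tRNA genes there remain possible.
mt-Tl1: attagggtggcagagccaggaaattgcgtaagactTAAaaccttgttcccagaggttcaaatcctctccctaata
mt-Tm: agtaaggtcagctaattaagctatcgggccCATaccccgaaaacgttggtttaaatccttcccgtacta
mt-Te: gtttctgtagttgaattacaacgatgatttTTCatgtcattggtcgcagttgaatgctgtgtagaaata
mt-Tq: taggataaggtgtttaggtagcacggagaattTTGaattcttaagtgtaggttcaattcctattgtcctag

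Lrp2 itself checks the labels. It averaged 371 ± 145 CPM in KO and 2079 ± 272 CPM in WT at 2 weeks, and 312 ± 71.4 CPM in KO and 1773 ± 350 CPM in WT at 12 weeks (SD, n = 6 each). CPM are counts per megacount, taken over library sizes scaled by TMM. Every KO library lay below every WT library at both durations. Total counts per library were 16.3 to 25.2 megacounts in KO and 15.6 to 34.1 in WT at 2 weeks, and 11.3 to 15.2 in KO and 11.4 to 14.5 in WT at 12 weeks. The 16 proximal tubule marker genes were all detected in every group. Their summed level was 32017 to 49286 CPM in KO and 39815 to 52215 CPM in WT at 2 weeks, and 25252 to 39726 CPM in KO and 45845 to 55441 CPM in WT at 12 weeks. The 15 leukocyte markers summed to 1082 to 2418 CPM in KO and 338 to 446 CPM in WT at 2 weeks, and to 1265 to 2707 CPM in KO and 286 to 667 CPM in WT at 12 weeks. The 8 fibroblast markers summed to 521 to 1486 CPM in KO and 130 to 188 CPM in WT at 2 weeks, and to 532 to 1393 CPM in KO and 109 to 391 CPM in WT at 12 weeks. The 10 markers of the thick ascending limb and distal convoluted tubule summed to 6155 to 7510 CPM in KO and 8918 to 10669 CPM in WT at 2 weeks. At 12 weeks they summed to 2889 to 6376 CPM in KO and 4587 to 6088 CPM in WT. Of these 10 markers 8 fell at 2 weeks, and 5 fell and 1 rose at 12 weeks (edgeR adjusted p under 0.05). Of the 16 proximal tubule markers 11 fell at 2 weeks and 14 at 12 weeks, and 0 rose (median log2 fold change -0.51 and -0.69). Over all tested genes, 13.4% fell at 2 weeks, and 17.7% fell and 20.7% rose at 12 weeks. Without KO replicate 2, 15.3% of all genes fell at 2 weeks. In that fit 12 proximal tubule markers and 8 markers of the thick ascending limb and distal convoluted tubule fell. None of these markers was at 0. The part of these marker differences in the results below was not tested. In bulk kidney, fewer cells of a type and less RNA per cell cannot be told apart.

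One library stands apart and touches every result at 2 weeks. KO replicate 2 had the highest level of the 6 KO libraries for 12 of the 13 protein genes, and its median level over them was 108% of the WT mean, against 45.1% to 62.6% in the other KO libraries. It also had the highest Lrp2 level of the KO libraries, 606 CPM, and the highest proximal tubule marker sum of them, 49286 CPM, against 32017 to 40999 CPM in the other KO libraries. Its leukocyte marker sum, 1611 CPM, lay within the KO range and above every WT library. The main counts of called members, most of their sums and most list counts at 2 weeks are also given without it. The values of most single nuclear genes include it.

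The 13 protein genes together took a smaller share of the counts in KO than in WT kidneys at both durations. The share was 5.37%, 6.12% and 9.92% (lowest, median and highest) in KO at 2 weeks, against 7.83%, 8.57% and 9.63% in WT. At 12 weeks it was 8.61%, 9.77% and 11.5% in KO, against 11.2%, 13.3% and 13.4% in WT. The groups overlapped through KO replicate 2 at 2 weeks, where the other 5 KO libraries lay below every WT library. At 12 weeks they overlapped through KO replicate 1 and WT replicate 3. The mean share was 6.73% ± 1.62 in KO and 8.69% ± 0.656 in WT at 2 weeks, and 9.84% ± 1.12 in KO and 12.9% ± 0.886 in WT at 12 weeks (SD, n = 6 each). The KO mean at 2 weeks was 6.09% without KO replicate 2.

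**Figure D1:**
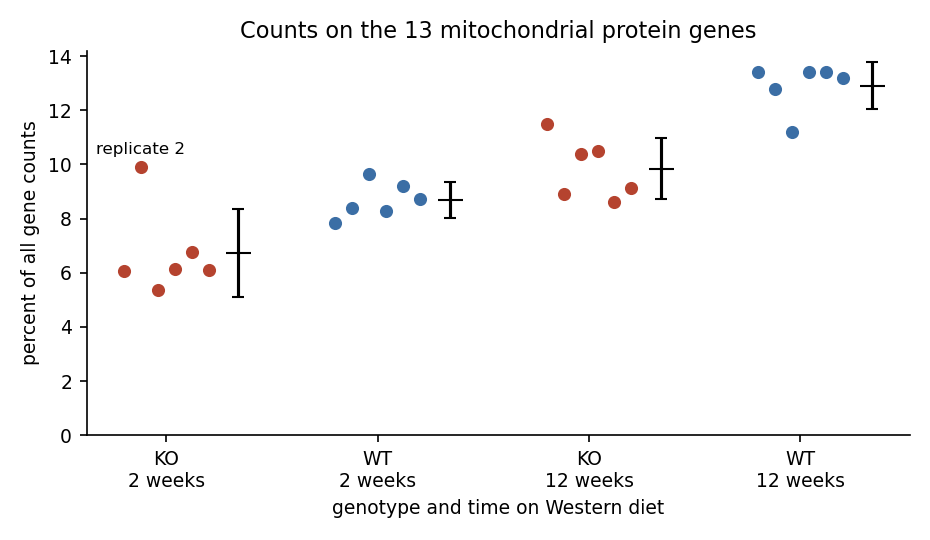
Percent of all gene counts that fell on the 13 mitochondrial protein genes, 1 point per library, with the mean and SD of each group as a bar at its right. At 2 weeks 5 of the 6 KO libraries lie below all WT libraries and KO replicate 2 lies at 9.92%. At 12 weeks the KO mean is 9.84% and the WT mean 12.9%.

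The fitted log2 fold change (KO over WT) was below 0 for 13 of 13 protein genes at 2 weeks and for 13 of 13 at 12 weeks. Of them 9 fell at 2 weeks and 10 at 12 weeks, 8 fell at both, and 0 rose at either (edgeR quasi-likelihood test, Benjamini-Hochberg adjusted p under 0.05 over 17286 genes). Over all tested genes, 31.6% passed at 2 weeks (13.4% lower and 18.2% higher) and 38.5% at 12 weeks (17.7% lower and 20.7% higher). The median log2 fold change of the protein genes was -0.57 at 2 weeks and -0.60 at 12 weeks, while that of all genes was -0.005 and 0. mt-Atp6 and mt-Co3 passed at neither duration. Every KO library lay below every WT library for 0 of the 13 genes at 2 weeks and for 6 at 12 weeks (mt-Nd1, mt-Nd2, mt-Co1, mt-Nd4, mt-Nd5 and mt-Cytb), beside 5.66% and 6.91% of all genes.

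Without KO replicate 2, 13 of 13 protein genes fell at 2 weeks, with a median log2 fold change of -0.86, and 8 had every KO library below every WT library. In that fit the log2 fold change was -0.66 for mt-Nd1, -0.58 for mt-Co1, -0.81 for mt-Co2, -0.66 for mt-Cytb, -0.69 for mt-Nd4 and -1.36 for mt-Atp8, and it was -1.12 for mt-Nd3 and -1.98 for mt-Nd4l (edgeR). Over all genes, 15.3% passed as lower and 7.75% had no overlap in this direction without that library. Scaling by plain library totals moved the median of all genes by 0.13 at 2 weeks and 0.23 at 12 weeks on the log2 scale. It made 80.2% of the calls at 2 weeks higher in KO, against 57.5% with TMM scaling, and 86.7% at 12 weeks, against 53.9%. With it, 9 protein genes fell at 2 weeks and 8 at 12 weeks, their median log2 fold change was -0.44 at 2 weeks and -0.37 at 12 weeks, and mt-Atp6 at 12 weeks turned to 0.14.

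**Figure D2:**
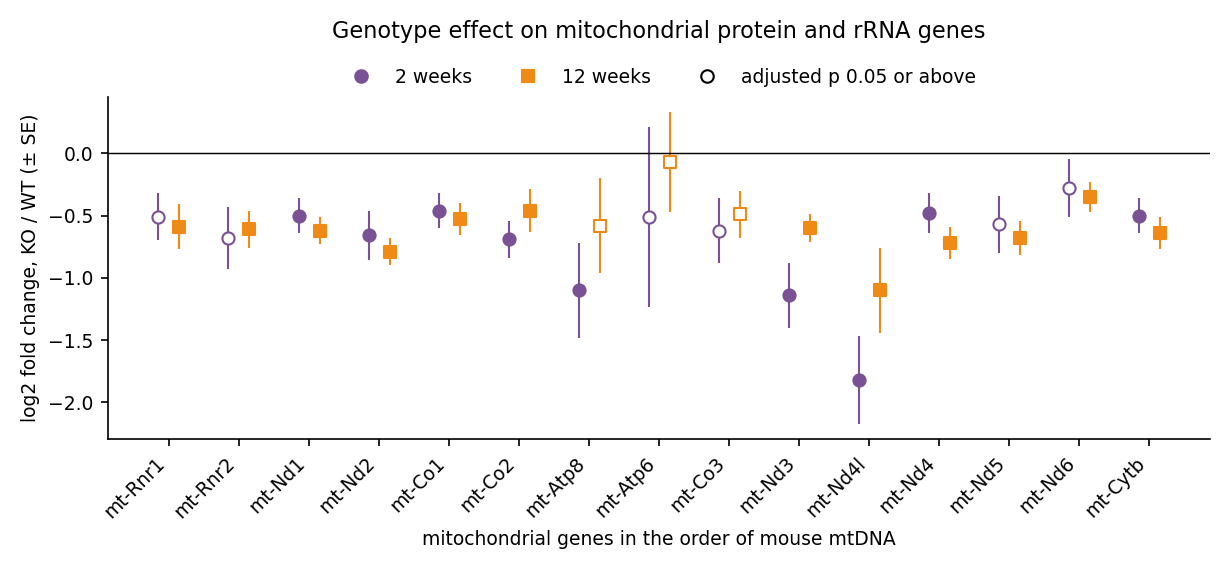
Log2 fold change (KO over WT) with its standard error for the 13 protein genes and 2 rRNA genes, in the order in which they lie on mtDNA, at 2 weeks (circles) and 12 weeks (squares), with filled symbols for genes that passed the test. All 30 values lie below 0, and mt-Atp6 at 12 weeks, at -0.07, lies nearest to it.

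Complex I takes up most of the mtDNA-encoded subunits. At 2 weeks 5 of its 7 genes fell (mt-Nd1, mt-Nd2, mt-Nd3, mt-Nd4 and mt-Nd4l), and at 12 weeks all 7 fell, beside 13.4% and 17.7% of all genes. Without KO replicate 2 all 7 fell at 2 weeks as well, beside 15.3% of all genes. mt-Nd1, a subunit of the membrane arm beside the quinone site, had 6009, 6541 and 10907 CPM (lowest, median and highest) in KO at 2 weeks, against 8555, 10313 and 11561 CPM in WT (log2 fold change -0.50 ± 0.14 SE, adjusted p = 0.009 in edgeR). At 12 weeks mt-Nd1 had 9736, 11263 and 13701 CPM in KO, against 15262, 17839 and 18244 CPM in WT (log2 fold change -0.62 ± 0.11 SE, adjusted p = 0.00063 in edgeR). Only KO replicate 2 reached into the WT range at 2 weeks, and no KO library did at 12 weeks. mt-Nd2, a subunit of the proton-pumping membrane arm, had 3788, 4568 and 10029 CPM in KO at 2 weeks, against 6842, 8536 and 9485 CPM in WT (log2 fold change -0.66 ± 0.20 SE, adjusted p = 0.019 in edgeR). At 12 weeks mt-Nd2 had 7484, 8405 and 9929 CPM in KO, against 12361, 15036 and 16097 CPM in WT (log2 fold change -0.79 ± 0.11 SE, adjusted p = 9.4e-05 in edgeR). At 2 weeks the highest value of all 12 libraries was that of KO replicate 2, and at 12 weeks the groups were apart. The 2-week log2 fold change of mt-Nd2 was -0.93 without KO replicate 2.

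mt-Nd4 and mt-Nd5 encode antiporter-like subunits of the same arm. mt-Nd4 had 4027, 4677 and 8829 CPM in KO at 2 weeks, against 6492, 7462 and 8276 CPM in WT (log2 fold change -0.48 ± 0.16 SE, adjusted p = 0.025 in edgeR). At 12 weeks mt-Nd4 had 4210, 5302 and 6351 CPM in KO, against 6676, 8803 and 9819 CPM in WT (log2 fold change -0.72 ± 0.13 SE, adjusted p = 0.00073 in edgeR). The groups were apart at 12 weeks and overlapped through KO replicate 2 alone at 2 weeks. The 2-week call of mt-Nd4 was lost, with adjusted p of 0.0531 to 0.0615, when KO replicate 1, 3, 4, 5 or 6 or WT replicate 3 or 5 was left out. mt-Nd5 had 3753, 5603 and 12340 CPM in KO at 2 weeks, against 7228, 9414 and 11879 CPM in WT (log2 fold change -0.57 ± 0.23 SE, adjusted p = 0.077 in edgeR). The 2-week difference of mt-Nd5 passed without KO replicate 2 (log2 fold change -0.86, adjusted p = 9e-05 in edgeR). At 12 weeks mt-Nd5 had 10420, 12696 and 16042 CPM in KO, against 16314, 20703 and 23538 CPM in WT (log2 fold change -0.68 ± 0.14 SE, adjusted p = 0.0013 in edgeR). At 12 weeks the highest KO library thus lay just below the lowest WT library.

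mt-Nd6 is the only protein gene on the minus strand, the strand opposite to the other 12. It had 1724, 1932 and 4723 CPM in KO at 2 weeks, against 2485, 2790 and 3614 CPM in WT (log2 fold change -0.28 ± 0.23 SE, adjusted p = 0.38 in edgeR). Without KO replicate 2, whose 4723 CPM exceeded every WT library, its log2 fold change was -0.60 (adjusted p = 0.0002 in edgeR). At 12 weeks mt-Nd6 had 256, 362 and 421 CPM in KO, against 402, 440 and 506 CPM in WT (log2 fold change -0.35 ± 0.12 SE, adjusted p = 0.035 in edgeR). In that comparison 4 KO libraries lay below all WT libraries. The call was lost, with adjusted p of 0.0533 to 0.0792, when KO replicate 2, 5 or 6 or WT replicate 1, 2, 5 or 6 was left out, and with plain library totals.

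The short complex I genes mt-Nd3 and mt-Nd4l have near-complete nuclear copies and low counts. mt-Nd3 had 19.0, 25.2 and 53.6 CPM in KO at 2 weeks, against 40.7, 65.3 and 86.0 CPM in WT (log2 fold change -1.14 ± 0.26 SE, adjusted p = 0.006 in edgeR). At 12 weeks mt-Nd3 had 12.3, 14.8 and 18.7 CPM in KO, against 18.7, 23.0 and 27.6 CPM in WT (log2 fold change -0.60 ± 0.11 SE, adjusted p = 0.00064 in edgeR). Here KO replicate 2, at 27.2 CPM, lay below every WT library at 2 weeks, and KO replicate 1 was the one at 53.6 CPM. mt-Nd4l had 10.1, 11 and 20.1 CPM in KO at 2 weeks, against 13.9, 52.5 and 65.5 CPM in WT (log2 fold change -1.82 ± 0.35 SE, adjusted p = 0.0022 in edgeR). At 12 weeks mt-Nd4l had 9.02, 12.8 and 20.9 CPM in KO, against 13, 30.5 and 51.9 CPM in WT (log2 fold change -1.10 ± 0.34 SE, adjusted p = 0.026 in edgeR). WT libraries varied more than KO libraries for mt-Nd4l, and the lowest WT library lay within the KO range at both durations. Its 12-week call was lost, with adjusted p of 0.05 to 0.0607, when KO replicate 1, 2 or 5 or WT replicate 2, 5 or 6 was left out.

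mt-Cytb, the cytochrome b subunit of complex III, had 8681, 9946 and 16528 CPM in KO at 2 weeks, against 13499, 14973 and 17751 CPM in WT (log2 fold change -0.50 ± 0.14 SE, adjusted p = 0.012 in edgeR). At 12 weeks mt-Cytb had 15050, 18633 and 22859 CPM in KO, against 24111, 29530 and 31986 CPM in WT (log2 fold change -0.64 ± 0.13 SE, adjusted p = 0.0014 in edgeR). The groups were apart at 12 weeks, and at 2 weeks 5 of 6 KO libraries lay below all WT libraries. mt-Co1, the catalytic subunit of cytochrome c oxidase, had the highest level per length of the 13 genes in both groups at 2 weeks. It had 21049, 24538 and 37442 CPM in KO at 2 weeks, against 30214, 36613 and 41223 CPM in WT (log2 fold change -0.46 ± 0.14 SE, adjusted p = 0.018 in edgeR). At 12 weeks mt-Co1 had 26541, 34102 and 41190 CPM in KO, against 42248, 49795 and 52585 CPM in WT (log2 fold change -0.53 ± 0.13 SE, adjusted p = 0.0048 in edgeR). The pattern of overlap was as for mt-Cytb.

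The other core subunits of complex IV, mt-Co2 and mt-Co3, share nearly their whole sequence with nuclear copies. mt-Co2, which binds cytochrome c, had 230, 273 and 409 CPM in KO at 2 weeks, against 350, 451 and 642 CPM in WT (log2 fold change -0.69 ± 0.15 SE, adjusted p = 0.0017 in edgeR). At 12 weeks mt-Co2 had 204, 252 and 376 CPM in KO, against 304, 332 and 507 CPM in WT (log2 fold change -0.46 ± 0.17 SE, adjusted p = 0.041 in edgeR). The 12-week call of mt-Co2 was lost, with adjusted p of 0.0566 to 0.0911, when KO replicate 2, 3, 5 or 6 or WT replicate 1 or 2 was left out, and with plain library totals. mt-Co3 had 154, 196 and 441 CPM in KO at 2 weeks, against 231, 362 and 454 CPM in WT (log2 fold change -0.62 ± 0.26 SE, adjusted p = 0.098 in edgeR). At 12 weeks mt-Co3 had 108, 167 and 260 CPM in KO, against 182, 233 and 321 CPM in WT (log2 fold change -0.49 ± 0.19 SE, adjusted p = 0.052 in edgeR). Neither difference of mt-Co3 passed. Its 2-week value without KO replicate 2 was -0.90 (adjusted p = 0.0015 in edgeR), and without KO replicate 1 or WT replicate 2 or 6 the 12-week value passed (edgeR adjusted p of 0.00557 to 0.0462).

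The ATP synthase genes gave the least settled values. mt-Atp6, which forms part of the proton channel, had 65, 81.7 and 746 CPM in KO at 2 weeks, against 126, 256 and 594 CPM in WT (log2 fold change -0.51 ± 0.72 SE, adjusted p = 0.64 in edgeR). At 12 weeks mt-Atp6 had 97.6, 118 and 463 CPM in KO, against 137, 195 and 261 CPM in WT (log2 fold change -0.07 ± 0.40 SE, adjusted p = 0.92 in edgeR). In each case 4 KO libraries lay below all WT libraries, while 1 KO library, replicate 2 at 2 weeks and replicate 1 at 12 weeks, lay above all of them. Without KO replicate 2 the 2-week difference passed (log2 fold change -1.58, adjusted p = 0.032 in edgeR). The 12-week value of mt-Atp6 was between 0.03 and 0.06 when KO replicate 2, 3, 4 or 5 or WT replicate 1 was left out. mt-Atp8, a small stalk subunit, had 1.68, 2.97 and 6.69 CPM in KO at 2 weeks, against 3.68, 6.29 and 13.8 CPM in WT (log2 fold change -1.10 ± 0.38 SE, adjusted p = 0.04 in edgeR). At 12 weeks mt-Atp8 had 3.47, 4.67 and 14.9 CPM in KO, against 5.51, 8.10 and 16 CPM in WT (log2 fold change -0.58 ± 0.38 SE, adjusted p = 0.25 in edgeR). These are few counts, 430 over the 6 KO libraries and 883 over the 6 WT libraries at 2 weeks. The 2-week call of mt-Atp8 was lost, with adjusted p of 0.0637 to 0.0841, when KO replicate 3, 4, 5 or 6 or WT replicate 4, 5 or 6 was left out. The 12-week value passed without KO replicate 1 (log2 fold change -1.03, adjusted p = 0.00771 in edgeR).

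**Figure D3:**
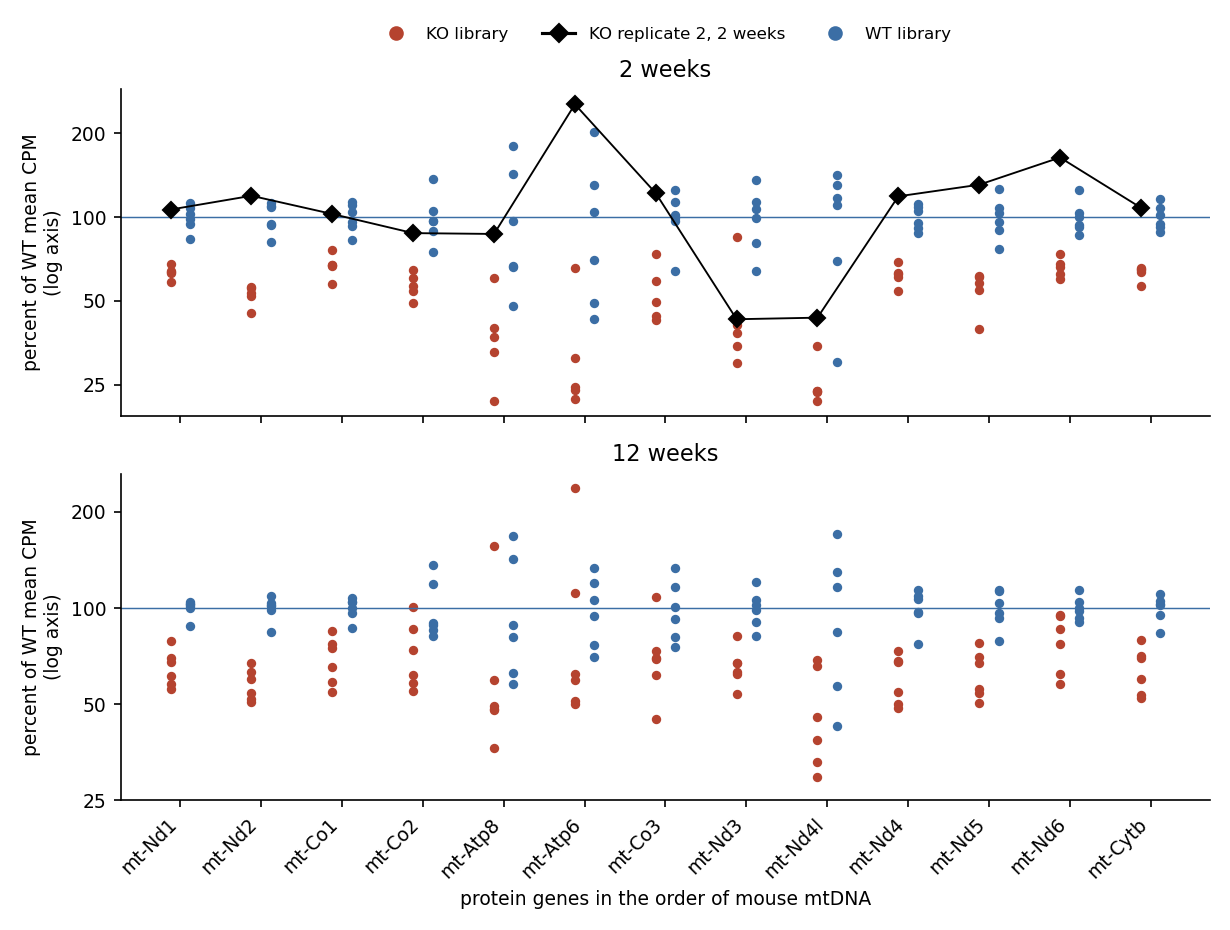
Level of each protein gene in each library as a percent of the WT mean of its duration, on a log axis, with KO libraries left of WT libraries for each gene. At 2 weeks KO replicate 2 (joined diamonds) lies at a median of 108% and the other KO libraries at medians of 45.1% to 62.6%. At 12 weeks KO medians run from 53.5% to 82.1%.

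At 12 weeks the KO libraries formed a gradient with no library as far apart. KO replicate 1 was the highest for 12 of 13 genes and had a median level of 82.1% of the WT mean. KO replicates 2 and 5 were the lowest in 8 and 5 of the genes, with medians of 53.5% and 54.4%. The same libraries stood at the ends of the proximal tubule marker sum, with 39726 CPM in replicate 1 and 25252 and 26050 CPM in replicates 2 and 5. KO replicate 2 of 12 weeks also had the highest sums of leukocyte and fibroblast markers of its group, 2707 and 1393 CPM. The part of these cell types in the mitochondrial levels was not tested. Summed over the 13 genes, CPM per CPM of proximal tubule markers was 1.71 in KO and 1.94 in WT at 2 weeks, and 2.89 in KO and 2.83 in WT at 12 weeks (means of 6). The groups overlapped at 2 weeks, with 1.42 to 2.08 in KO and 1.74 to 2.31 in WT. At 12 weeks they overlapped with 2.36 to 3.26 in KO and 2.58 to 3 in WT. The 2-week KO mean was 1.64 without KO replicate 2. Per CPM of the 77 nuclear subunits the mean was 3.37 in KO and 3.84 in WT at 2 weeks, and 5.11 in KO and 6.18 in WT at 12 weeks, with 2.95 in KO at 2 weeks without KO replicate 2. These groups overlapped too, with 2.44 to 5.49 in KO and 3.35 to 4.45 in WT at 2 weeks. The 12-week ranges were 4.64 to 5.64 in KO and 5.33 to 7.02 in WT.

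**Figure D4:**
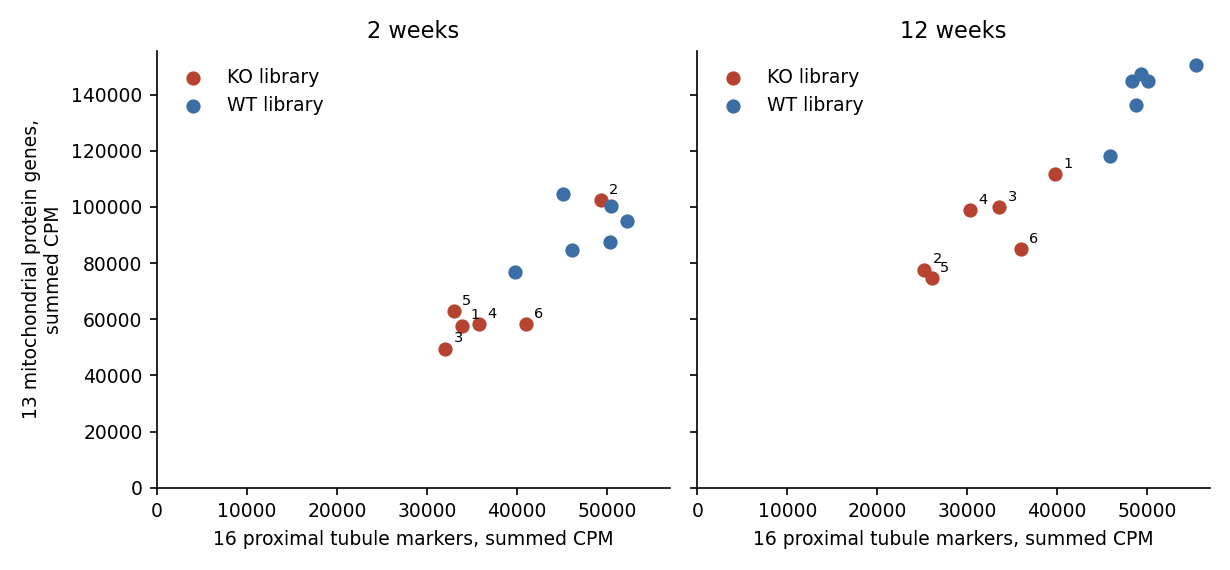
Summed CPM of the 13 mitochondrial protein genes (vertical axis) against summed CPM of 16 proximal tubule markers (horizontal axis), 1 point per library and KO replicates numbered. KO replicate 2 of 2 weeks, at 102450 and 49286 CPM, lies among the WT points, and at 12 weeks every KO point lies below every WT point on both axes.

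By complex, the mitochondrial genes of complex I summed to 69.2% of WT in KO at 2 weeks and 62.0% at 12 weeks. The values were 70.7% and 64.2% for complex III, 72.7% and 69.2% for complex IV, and 69.6% and 94.0% for ATP synthase. With KO replicate 2 left out, the 2-week values were 58.7% for complex I, 63.2% for complex III, 66.7% for complex IV and 33.5% for ATP synthase, whose KO mean was 210 CPM with that library and 101 CPM without it, against 301 CPM in WT. Every KO library lay below every WT library at 12 weeks for complexes I, III and IV. The makeup within the 13 genes is a description and carries no test. mt-Co1 made up 41.6% ± 2.60 of their CPM in KO and 39.9% ± 0.384 in WT at 2 weeks, and 36.9% ± 0.692 in KO and 34.8% ± 1.05 in WT at 12 weeks (SD, n = 6 each). mt-Nd2 made up 8.03% ± 0.880 in KO and 9.19% ± 0.338 in WT at 2 weeks, and 9.41% ± 0.528 in KO and 10.5% ± 0.355 in WT at 12 weeks. The KO means at 2 weeks were 42.6% for mt-Co1 and 7.68% for mt-Nd2 without KO replicate 2.

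Levels per length differed widely between the protein genes. At 2 weeks mt-Co1 averaged 17226 CPM per kilobase in KO, while its neighbour mt-Co2 averaged 424, mt-Atp6 303, mt-Co3 300, mt-Nd3 82.4 and mt-Nd4l 44.3 CPM per kilobase. The KO mean without KO replicate 2 was 15824 CPM per kilobase for mt-Co1 and 144 for mt-Atp6, and the other 4 lay at 39.6 to 389. These 5 low genes are those of which at least 95% of all stretches of 50 bases also occur in an annotated nuclear transcript (98% to 100%). In mt-Nd4 62.2% of stretches did and in mt-Co1 51.1%, and in mt-Nd1, mt-Nd6 and mt-Cytb 0%. mt-Atp8, at 0%, was low as well, but only annotated transcripts were searched. On mtDNA mt-Atp8 lies between mt-Co2 and mt-Atp6 and overlaps mt-Atp6 by 43 bases. Both of these neighbours have copies in the same block of chromosome 1, and nuclear sequence between annotated copies was not searched. The sources used here do not give how reads with several equal matches were counted, and whether the levels of the 5 genes leave out such reads was not tested. Of these 5 genes 3 fell at each duration (median log2 fold change -0.69 and -0.49), and of the other 8 genes 6 fell at 2 weeks and 7 at 12 weeks (median -0.50 and -0.63). Over all genes 13.4% fell at 2 weeks and 17.7% at 12 weeks. Without KO replicate 2 all 5 genes (median -1.12) and all 8 others (median -0.68) fell at 2 weeks, beside 15.3% of all genes.

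The nuclear copies themselves also received counts. Of the 9 pseudogenes aligned, 8 were tested, of which 1 fell at 2 weeks and 6 at 12 weeks, and 0 rose (median log2 fold change -0.39 and -0.80). Over all genes, 13.4% passed as lower at 2 weeks and 17.7% at 12 weeks, so the 2-week count is near the share of all genes. At 2 weeks 4 fell without KO replicate 2, beside 15.3% of all genes. Gm28438, the copy of mt-Nd3, had 2.57, 2.80 and 6.16 CPM in KO at 2 weeks, against 3.24, 7.13 and 27.5 CPM in WT (log2 fold change -1.49 ± 0.52 SE, adjusted p = 0.049 in edgeR). The 2-week log2 fold changes of Gm28439 (-0.72), Gm10222 (-0.57), Gm10925 (-0.48), Gm28437 (-0.29) and Gm13339 (-0.18) did not pass with all libraries, and the first 3 of these passed without KO replicate 2. Gm28661, the copy of mt-Co2, had 98.6, 115 and 213 CPM in KO at 2 weeks, against 78.7, 119 and 209 CPM in WT (log2 fold change -0.02 ± 0.27 SE, adjusted p = 0.97 in edgeR). The 213 CPM was that of KO replicate 2, without which the log2 fold change was -0.21 (adjusted p = 0.56 in edgeR). At 12 weeks Gm28661 had 102, 151 and 225 CPM in KO, against 166, 208 and 262 CPM in WT (log2 fold change -0.43 ± 0.18 SE, adjusted p = 0.072 in edgeR). Gm29216, the partial copy of mt-Co1, had 23.1, 77.9 and 321 CPM in KO at 2 weeks, against 28.5, 43.7 and 78.7 CPM in WT (log2 fold change 1.45 ± 0.68 SE, adjusted p = 0.13 in edgeR), and was the only tested copy with a value above 0. The 321 CPM was that of KO replicate 2, without which the log2 fold change was 0.91 (adjusted p = 0.3 in edgeR). At 12 weeks Gm29216 had 38.7, 46.3 and 66.2 CPM in KO, against 55.3, 72.2 and 182 CPM in WT (log2 fold change -0.82 ± 0.29 SE, adjusted p = 0.04 in edgeR). Which of these reads came from mtDNA cannot be told apart by sequence where the copies are identical.

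**Figure D5:**
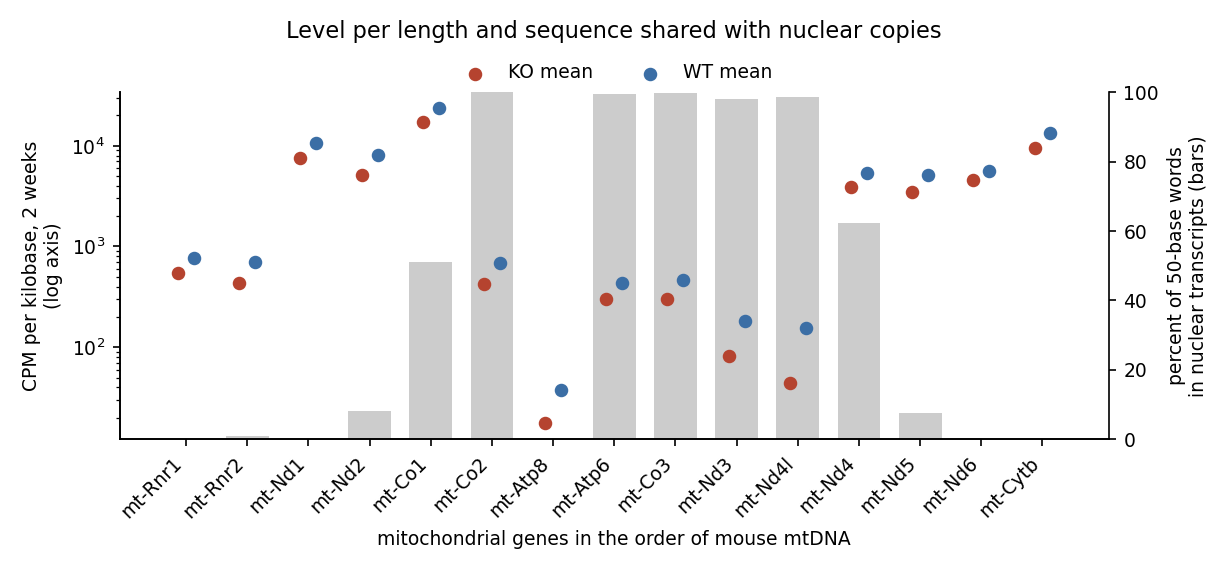
Mean CPM per kilobase at 2 weeks (points, left log axis) for each protein and rRNA gene in the order of mtDNA, with the percent of its 50-base stretches that occur in annotated nuclear transcripts (grey bars, right axis). The 5 genes with bars of 98% or more lie at 44.3 to 424 CPM per kilobase in KO, and mt-Co1 at 17226.

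The rRNAs of the mitochondrial ribosome are described next by their levels. mt-Rnr1, the RNA of the small subunit, had 384, 429 and 839 CPM in KO at 2 weeks, against 559, 744 and 949 CPM in WT (log2 fold change -0.51 ± 0.19 SE, adjusted p = 0.057 in edgeR). At 12 weeks mt-Rnr1 had 1745, 2115 and 3164 CPM in KO, against 2349, 3204 and 4830 CPM in WT (log2 fold change -0.59 ± 0.18 SE, adjusted p = 0.02 in edgeR). mt-Rnr2, the RNA of the large subunit, had 479, 531 and 1168 CPM in KO at 2 weeks, against 754, 1061 and 1531 CPM in WT (log2 fold change -0.68 ± 0.25 SE, adjusted p = 0.061 in edgeR). At 12 weeks mt-Rnr2 had 2681, 3297 and 4289 CPM in KO, against 3869, 5043 and 6903 CPM in WT (log2 fold change -0.61 ± 0.15 SE, adjusted p = 0.0042 in edgeR). Thus 0 of the 2 rRNA genes passed at 2 weeks and both fell at 12 weeks, with overlapping groups in all 4 cases. At an unadjusted p under 0.05 both 2-week differences passed, and DESeq2 called neither of them. Without KO replicate 2 or without WT replicate 4 both passed at 2 weeks (adjusted p of 0.00121 to 0.0391), and with plain library totals neither passed at 12 weeks. The labels say that cDNA was made from mRNA, and how much rRNA each library carried over was not measured.

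The tRNA genes are read within a duration, because their levels differed between durations gene by gene, as given below. Of the 22 genes 15 passed the filter on low counts over all 24 libraries. The other 7 were mt-Tf, mt-Tv, mt-Ti, mt-Ta, mt-Ts1, mt-Td and mt-Tk. mt-Tf and mt-Td had 0 counts in all 24 libraries, which allows up to 0.025 CPM in either group of 2 weeks, and 0.035 CPM in KO and 0.044 CPM in WT at 12 weeks (3 counts over 6 libraries, counting error only). Whether reads in a tRNA gene came from the mature tRNA, from uncut precursors or from fragments that reach into a neighbouring gene was not tested.

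At 2 weeks 11 tRNA genes fell and 0 rose, and 6 had every KO library below every WT library, beside 13.4% and 5.66% of all genes. mt-Te, which reads glutamate codons, had 12.5, 20.5 and 22.6 CPM in KO, against 34.6, 43.1 and 52.2 CPM in WT (log2 fold change -1.14 ± 0.13 SE, adjusted p = 2e-06 in edgeR). mt-Tl1, the leucine tRNA that follows the rRNA genes, had 1.11, 1.28 and 1.59 CPM in KO, against 2.77, 3.27 and 4.37 CPM in WT (log2 fold change -1.38 ± 0.18 SE, adjusted p = 1.2e-05 in edgeR). mt-Ty, for tyrosine, had 2.52, 3.28 and 5.25 CPM in KO, against 5.95, 7.12 and 12.3 CPM in WT (log2 fold change -1.19 ± 0.22 SE, adjusted p = 0.00041 in edgeR). The groups were apart for all 3 of these genes. mt-Tm had 0.176, 0.281 and 0.678 CPM in KO, against 0.706, 1.19 and 2.5 CPM in WT (log2 fold change -1.90 ± 0.38 SE, adjusted p = 0.00079 in edgeR), from 46 counts over the KO libraries and 162 over the WT libraries. KO replicate 2 did not stand high for these 4 tRNAs. It had 18.2 CPM of mt-Te, 1.35 CPM of mt-Tl1, 2.76 CPM of mt-Ty and 0.176 CPM of mt-Tm, each below every WT library. Of all 15 tested tRNA genes it lay below every WT library for 9, and it was the highest KO library for 6 (mt-Tp, mt-Tc, mt-Tn, mt-Tw, mt-Tr and mt-Tq). Its share of counts on the 22 tRNA genes, 0.0275%, was the highest of the KO libraries and above the lowest WT library, at 0.0265%.

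Among the tRNA genes with the highest levels at 2 weeks, log2 fold changes lay nearer to 0 for mt-Tp, mt-Tc and mt-Tn than for mt-Te. mt-Tp, for proline, had 107, 137 and 164 CPM in KO, against 145, 171 and 200 CPM in WT (log2 fold change -0.35 ± 0.10 SE, adjusted p = 0.011 in edgeR). mt-Tc, for cysteine, had 19.7, 27.7 and 69.9 CPM in KO, against 33.0, 46.4 and 64.1 CPM in WT (log2 fold change -0.51 ± 0.30 SE, adjusted p = 0.24 in edgeR). mt-Tn, for asparagine, had 7.30, 10.2 and 15.1 CPM in KO, against 14.0, 16.6 and 20.1 CPM in WT (log2 fold change -0.61 ± 0.15 SE, adjusted p = 0.0043 in edgeR). For mt-Tc the highest library of all 12 was KO replicate 2. The other called genes were mt-Tq, mt-Tg, mt-Th, mt-Ts2 and mt-Tl2, at log2 fold changes of -0.68 to -1.38. Leaving out KO replicate 4 or WT replicate 2 or 5 ended the call of mt-Tg, leaving out KO replicate 4 or 5 or WT replicate 1 or 3 that of mt-Ts2, and leaving out KO replicate 3 that of mt-Tl2 (adjusted p of 0.0538 to 0.0765). Without KO replicate 2 mt-Tc and mt-Tw passed as well (adjusted p = 0.00204 and 0.0223), so that 13 of the 15 tested tRNA genes fell, and 8 had no overlap, beside 15.3% and 7.75% of all genes.

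At 12 weeks 5 tRNA genes fell and 0 rose, beside 17.7% of all genes called lower. mt-Tq had 3.01, 4.12 and 5.62 CPM in KO, against 6.41, 7.82 and 8.96 CPM in WT (log2 fold change -0.91 ± 0.16 SE, adjusted p = 0.00044 in edgeR). mt-Tl1 had 1.48, 2.07 and 3.34 CPM in KO, against 3.13, 4.24 and 5.88 CPM in WT (log2 fold change -1.01 ± 0.22 SE, adjusted p = 0.0025 in edgeR). mt-Tw, for tryptophan, had 5, 8.04 and 9.02 CPM in KO, against 9.31, 12.8 and 26.3 CPM in WT (log2 fold change -0.98 ± 0.25 SE, adjusted p = 0.0071 in edgeR). The groups were apart for mt-Tq and mt-Tw. The others were mt-Tm (log2 fold change -0.87, adjusted p = 0.02 in edgeR) and mt-Tp (log2 fold change -0.67, adjusted p = 0.043 in edgeR). The call of mt-Tm was lost without WT replicate 6 (adjusted p = 0.0539), and that of mt-Tp without KO replicate 2, 5 or 6 or WT replicate 2 or 5 (adjusted p of 0.0718 to 0.118). mt-Tl1, mt-Tq, mt-Tm and mt-Tp fell at both durations. With plain library totals mt-Tp passed at neither (log2 fold change -0.22 and -0.45, adjusted p = 0.0879 and 0.148 in edgeR). mt-Ts2 and mt-Tl2 had 0 counts at 12 weeks, and mt-Th had 21 counts in 1 KO library and 0 in every other library, for which no fold is given.

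The tRNA levels differed between durations gene by gene. The 8 genes of the minus strand summed to 158 to 271 CPM in KO and 243 to 320 CPM in WT at 2 weeks, and to 5.01 to 9.26 CPM in KO and 10.9 to 15.5 CPM in WT at 12 weeks. The 14 genes of the plus strand summed to 8.93 to 21.1 CPM in KO and 22.4 to 33.1 CPM in WT at 2 weeks, and to 9.83 to 17.1 CPM in KO and 18 to 38.4 CPM in WT at 12 weeks. Both sums hold genes that went both ways. On the plus strand mt-Tl2 had 470 counts in KO and 1122 in WT at 2 weeks and 0 in both at 12 weeks, while mt-Tw averaged 1.21 CPM in KO and 1.82 CPM in WT at 2 weeks, and 7.55 CPM in KO and 14.9 CPM in WT at 12 weeks. On the minus strand mt-Te averaged 19.3 CPM in KO and 42.8 CPM in WT at 2 weeks, and 0.234 CPM in KO and 0.331 CPM in WT at 12 weeks, while mt-Tq averaged 0.371 CPM in KO and 1.01 CPM in WT at 2 weeks, and 4.18 CPM in KO and 7.87 CPM in WT at 12 weeks. mt-Nd6, on the minus strand too, averaged 2372 CPM in KO and 2885 CPM in WT at 2 weeks, and 349 CPM in KO and 444 CPM in WT at 12 weeks. The strand setting used in counting is not stated in any label or header used here. Duration and any difference in library making or counting cannot be told apart, so no level is compared between durations as a result.

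The genotype effect itself can be compared between durations. The interaction (KO over WT at 12 weeks relative to 2 weeks) passed for 0 of 13 protein genes and 0 of 2 rRNA genes, beside 0.174% of all genes (edgeR quasi-likelihood test over 24 libraries). At an unadjusted p under 0.05 the number of protein genes was also 0, and DESeq2 called 0. The lowest unadjusted p was that of mt-Nd3, 0.0773, with an interaction of 0.54 (SE 0.29, adjusted p = 0.52 in edgeR). For mt-Co1 the interaction was -0.08 (SE 0.19), for mt-Cytb -0.14 (SE 0.20) and for mt-Nd1 -0.12 (SE 0.18). The standard error was larger for mt-Nd4l (0.50), mt-Atp8 (0.57) and mt-Atp6 (0.83). The value of mt-Nd3 did not pass although it exceeded its standard error, so differences larger than these errors could also go undetected. The lack of a call thus does not show that the genotype effects were equal.

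Nuclear genes that serve the same organelle were counted by list, without a test against the mitochondrial genes, and each count stands beside the 13.4% of all genes called lower at 2 weeks and the 17.7% at 12 weeks. Of 77 tested nuclear subunits of complexes I to V, 37 fell at 2 weeks (48.1%) and 64 at 12 weeks (83.1%), and 0 rose (median log2 fold change -0.24 and -0.33). All 4 subunits of complex II, which has no mitochondrially encoded member, fell at both durations (median -0.37 and -0.38). Sdha, its flavoprotein, averaged 687 ± 53.4 CPM in KO and 935 ± 82.3 CPM in WT at 2 weeks (SD, n = 6 each; log2 fold change -0.44). In KO replicate 2 of 2 weeks the nuclear subunits summed to 18660 CPM, within the 17620 to 20842 CPM of the KO libraries and below the 22904 to 24615 CPM of WT, while its mitochondrial protein genes summed to 102450 CPM, within the 76749 to 104415 CPM of WT. Of 18 genes for other mitochondrial proteins 9 fell at 2 weeks (50%) and 13 at 12 weeks (72.2%), and 0 rose (median -0.18 and -0.28). These are RNA levels, and organelle mass was not measured. At 2 weeks 39 nuclear subunits and 8 of these 18 genes fell without KO replicate 2, beside 15.3% of all genes.

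The next lists hold genes that copy and transcribe mtDNA and process its RNA. Of 22 genes for mtDNA transcription and replication, 5 fell at 2 weeks (22.7%) and 7 at 12 weeks (31.8%), and 0 rose (median log2 fold change -0.13 and -0.16). Twnk, the mtDNA helicase, averaged 36.5 ± 4.45 CPM in KO and 44.8 ± 4.65 CPM in WT at 2 weeks (log2 fold change -0.30, adjusted p = 0.016 in edgeR). Tfam, which packs mtDNA and starts its transcription, averaged 48.3 ± 6.01 CPM in KO and 60 ± 4.43 CPM in WT at 12 weeks (SD, n = 6 each, as for the other values here; log2 fold change -0.31, adjusted p = 0.008 in edgeR). Of 34 genes for processing and stability of mitochondrial RNA, 7 fell at 2 weeks (20.6%) and 13 at 12 weeks (38.2%), and 0 rose (median -0.10 and -0.21). Of these lists 6 and 8 genes fell at 2 weeks without KO replicate 2. Nsun3, which methylates the methionine tRNA mt-Tm, averaged 15.1 ± 0.737 CPM in KO and 21 ± 2.10 CPM in WT at 12 weeks (log2 fold change -0.48, adjusted p = 0.0004 in edgeR), with the groups apart.

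Of 20 genes that charge mitochondrial tRNAs, 6 fell at 2 weeks (30%) and 8 at 12 weeks (40.0%), and 0 rose (median log2 fold change -0.16 and -0.21). Gatb, a subunit of the enzyme that completes the charging of the glutamine tRNA mt-Tq, averaged 72.0 ± 5.76 CPM in KO and 101 ± 11.2 CPM in WT at 2 weeks (log2 fold change -0.49, adjusted p = 0.00013 in edgeR). At 12 weeks Gatb averaged 59.2 ± 9.49 CPM in KO and 88.2 ± 8.26 CPM in WT (log2 fold change -0.58, adjusted p = 0.0004 in edgeR; SD, n = 6 each). Of 13 mitochondrial translation factors 7 fell at 2 weeks (53.8%) and 9 at 12 weeks (69.2%), and 0 rose (median -0.27 and -0.29). Of 77 mitochondrial ribosomal proteins 9 fell and 2 rose at 2 weeks, and 32 fell and 1 rose at 12 weeks (median -0.11 and -0.20). The 11.7% that fell at 2 weeks is below the 13.4% of all genes, and 41.6% fell at 12 weeks. The 2-week counts of genes that fell in these 3 lists were 6, 7 and 8 without KO replicate 2.

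Of 14 regulators of mitochondrial biogenesis 5 fell (35.7%) and 1 rose at 2 weeks, and 8 fell (57.1%) and 2 rose at 12 weeks (median log2 fold change -0.15 and -0.24), with 5 and 1 at 2 weeks without KO replicate 2 as well. Ppargc1b, a coactivator that drives respiratory genes, averaged 7.13 ± 1.90 CPM in KO and 13.1 ± 0.940 CPM in WT at 2 weeks (log2 fold change -0.88, adjusted p = 0.00012 in edgeR). Sirt3, the mitochondrial deacetylase, averaged 65.1 ± 9.95 CPM in KO and 96.0 ± 1.27 CPM in WT at 2 weeks (log2 fold change -0.56, adjusted p = 6.7e-05 in edgeR). Pprc1, a related coactivator, went the other way, with 24.5 ± 1.51 CPM in KO and 17.9 ± 2.31 CPM in WT at 2 weeks (log2 fold change 0.45, adjusted p = 0.00082 in edgeR; SD, n = 6 each). At 12 weeks Pprc1 averaged 26.4 ± 4.37 CPM in KO and 15.7 ± 3.27 CPM in WT (log2 fold change 0.74, adjusted p = 0.00076 in edgeR). The groups were apart for Ppargc1b, Sirt3 and Pprc1 in these comparisons.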

How the data were processed

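Bulk RNA sequencing was analysed from 24 deposited tables of raw read counts per Ensembl gene, 1 per library, without normalization by the authors. Per the submitters' processing notes, fastp, STAR 2.5 and HTSeq 0.6.1 were used with mm10. Per the labels, RNA came from a Maxwell RSC simplyRNA kit and libraries from a NEBNext Ultra RNA kit. The sources used here do not give the strand setting, the annotation release or the handling of reads with several matches, so genes that overlap on opposite strands (mt-Nd5 and mt-Nd6 by 14 bases) and near-identical copies are uncertain.

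Symbols and sequences came from GENCODE M21, which matched 54495 of 54532 identifiers. filterByExpr (minimum count 10, minimum total 15, all 24 libraries) kept 17286 genes. Each duration was fitted on its 12 libraries with edgeR 4.0.16 under R 4.3.3 (scaling by TMM, two-sided quasi-likelihood F test with robust estimates, threshold 0.05 on p adjusted by Benjamini-Hochberg over all tested genes), and the interaction on all 24. The standard error is the absolute log2 fold change over the square root of F. CPM use the TMM-scaled library size of their duration. Nuclear copies were sought as shared 50-base words among annotated transcripts and aligned with Biopython 1.88. Sums over members carry no test. The fitting step was tested on simulated data. No pair of libraries looked like a duplicate.

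All 37 members, the pathway and marker lists and the rule for naming genes were chosen with earlier results of these data known. The rule named all protein and rRNA genes, the 4 tested tRNA genes with the highest mean CPM, and called tRNA genes, and from each list up to 3 called genes per duration, of which the few given bear on the members. Alternatives were DESeq2 1.42.0, other scalings (RLE, upper quartile, plain totals, nuclear genes only), other filters, all 24 libraries in 1 fit, a minimum log2 fold change of 0.5, removal of ribosomal RNA repeat genes, other denominators, the replicate number as a block and each library left out.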

Additional observations from a re-analysis of the deposited data

Results flagged for a closer look

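In groups of 6 libraries, a value was singled out when its gap to the nearest other library took more of the group's range than the critical value of Dixon's test at 95% allows. For independent groups chance gives about 1 in 20. The 64 groups examined reuse the same 24 libraries, so they are not independent and that rate cannot be set against their number. Of these groups 13 met the criterion. KO replicate 2 of 2 weeks accounted for 8 of them, as the highest library. It had 10907 CPM of mt-Nd1 against 6009 to 6924 in the other KO libraries, 10029 CPM of mt-Nd2 against 3788 to 4706, and 746 CPM of mt-Atp6 against 65 to 192. It had 8829 CPM of mt-Nd4 against 4027 to 5122, 12340 CPM of mt-Nd5 against 3753 to 5816, 4723 CPM of mt-Nd6 against 1724 to 2128, and 16528 CPM of mt-Cytb against 8681 to 10021. Its share of counts on the 13 protein genes was 9.92%, against 5.37% to 6.75%. For mt-Nd3 the high library of the same group was KO replicate 1, at 53.6 CPM against 19.0 to 27.2.

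At 12 weeks KO replicate 1 was high for mt-Atp8, at 14.9 CPM against 3.47 to 5.68 in the other KO libraries, and for mt-Atp6, at 463 CPM against 97.6 to 218. WT replicate 3 of 12 weeks was low for mt-Nd1, at 15262 CPM against 17423 to 18244 in the other WT libraries, and its share of counts on the 13 protein genes was 11.2%, against 12.8% to 13.4%. The cause of none of these was tested.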

How the results depend on the processing

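RLE, upper-quartile and nuclear-gene scaling, DESeq2, both other filters and removal of ribosomal RNA repeat genes left 6 to 11 protein genes lower in KO, and 0 higher, at each duration. A minimum log2 fold change of 0.5 left 1 protein gene at each duration, 4 and 2 tRNA genes at 2 and 12 weeks, 0 rRNA genes at 12 weeks, 1648 and 1824 of all genes and 9 interactions. Plain library totals left 8 tRNA genes at 2 weeks (the calls of mt-Tg, mt-Ts2 and mt-Tp were lost), 3 tRNA genes and 0 rRNA genes at 12 weeks, and turned mt-Atp6 and mt-Tg at 12 weeks to 0.14 each. Over single libraries left out, mt-Atp6 ranged from -0.58 to 0.06 and mt-Tg from -0.34 to 0.12 at 12 weeks, and neither value above 0 passed. With all 24 libraries in 1 fit 2 rRNA genes, mt-Co3 and mt-Nd5 passed at 2 weeks, while the 12-week call of mt-Nd6 (adjusted p = 0.12 in edgeR) and the 2-week call of mt-Th (0.284) were lost. DESeq2 called 133 interactions among all genes, 0 of them protein genes. Over nuclear gene counts the protein-gene share was 9.54% in WT at 2 weeks, and 11% in KO and 15% in WT at 12 weeks. With no filter the 2-week calls of mt-Nd2, mt-Nd4, mt-Atp8 and mt-Tl2 and the 12-week calls of mt-Co2, mt-Nd4l and mt-Tp were lost (edgeR adjusted p of 0.0591 to 0.114). The cause of these changes was not tested.

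With each library left out, 7 to 13 protein genes fell at 2 weeks and 7 to 11 at 12 weeks, and 0 to 2 rRNA genes passed at 2 weeks. The count of interactions ranged from 22 to 56, the highest without KO replicate 3 of 12 weeks. Residual correlations between libraries of equal replicate number ranged from -0.104 to 0.171. They do not settle whether replicate numbers pair the libraries. With a replicate block 10 and 11 protein genes fell at 2 and 12 weeks, 1 rRNA gene passed at 2 weeks and 3 tRNA genes at 12 weeks. Several tRNA genes had fewer than 50 counts over 6 libraries, which limits the precision of their values.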
